A study of Mus musculus with 9 samples.

Results

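The TNF and TNF receptor superfamilies were taken as every gene whose symbol is Tnfsf or Tnfrsf followed by a digit, which gave 32 of the 30588 genes measured. Of these 32, 12 are ligands (Tnfsf) and 20 are receptors (Tnfrsf). RNA-Seq was performed on dendritic cells (DCs) that had been grown from mouse bone marrow for 6 days with granulocyte-macrophage colony-stimulating factor and enriched on magnetic beads for CD11c, an integrin of DCs. All mice were C57BL/6J, and no culture received a further agent. The 5 WT cultures (replicates 3 to 7) carried intact *Gnas*, the gene of the G protein subunit that stimulates cAMP synthesis, and came by label from 2 male and 3 female mice. The 4 Δ*Gnas* cultures (replicates 3, 4, 6 and 7) came by label from 2 male and 2 female mice with floxed *Gnas* and a Cre driven by the CD11c promoter, so the deletion was limited to cells that use this promoter, and the paper describes this Cre as leaky. The ages of the mice were not given in the sources used here, and the paper calls the cultures biological replicates. The comparison asked how gene expression differs in DCs with chronically low cAMP.

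Ligands of the TNF superfamily are mostly trimeric proteins of the cell surface, and many can be shed as soluble cytokines. Their receptors either carry a death domain, which links them to caspases, or recruit TRAF adaptors, which activate NF-kB and MAP kinases. On DCs, several of the ligands costimulate T cells that have recognised antigen, others sustain B cells, and receptors such as those for TNF and RANKL control DC activation and survival.

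The libraries held 34252701 to 49427934 estimated counts. The TMM factors, by which the test scales each library, ran from 0.825 in WT replicate 7 to 1.21 in WT replicate 3. TPM values are given without these factors. *Gnas* was at 404 to 532 TPM (a transcript level corrected for length and depth) in WT DCs and at 48.0 to 63.6 TPM in Δ*Gnas* DCs. Of 12 DC markers, 4 were higher in Δ*Gnas* DCs (*Itgax*, *Cd24a*, *Sirpa* and *H2-Ab1*) and 1 was lower. The lower one was *Zbtb46* (log2 fold change -0.80, edgeR adjusted p = 0.0228). Over all genes tested, 5.41% were higher and 4.15% lower. Together the 12 DC markers summed to 19822 to 31941 TPM in WT and 27988 to 33257 TPM in Δ*Gnas* libraries. Most of this sum came from *Cd74*, *H2-Aa* and *H2-Ab1*. Of 12 macrophage markers, 7 were lower, with sums of 4199 to 9348 TPM in WT and 2205 to 3156 TPM in Δ*Gnas* libraries. The share of TPM from the mitochondrial genome was 5.85 to 8.54% in 8 libraries, and WT replicate 3 had 1.39%. WT replicate 7, labelled female, had 21.3 TPM of the Y-linked gene *Ddx3y*, against 0.0173 to 0.160 TPM in the other libraries labelled female.

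Of the 32 members, 24 (9 ligands and 15 receptors) had over 1 CPM (a count scaled to the size of its library) in at least 3 libraries and were tested. A gene is said to change where its adjusted p (edgeR's quasi-likelihood test, Benjamini-Hochberg over all 11862 genes tested) was under 0.05. In Δ*Gnas* DCs 2 members fell and 0 rose, which is 8.33% of those tested, against 9.56% of all genes tested, 5.41% higher and 4.15% lower. The 2 members are *Tnfrsf9*, the receptor 4-1BB, and *Tnfsf9*, its ligand 4-1BBL. An unadjusted p under 0.05 was found for 8 members, 3 higher and 5 lower (33.3%, against 23.7% of all genes). For 5 members the normalised WT and Δ*Gnas* values stood fully apart, *Tnfrsf9*, *Tnfsf9*, *Tnfsf4*, *Tnfsf14* and *Tnfrsf13b* (20.8%, against 11.9% of all genes). The median log2 fold change was -0.08 over the 9 ligands and -0.07 over the 15 receptors, and over all genes tested it was -0.0043. Ligands and receptors thus had medians near each other, with 1 of 9 and 1 of 15 called.

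**Figure D1:**
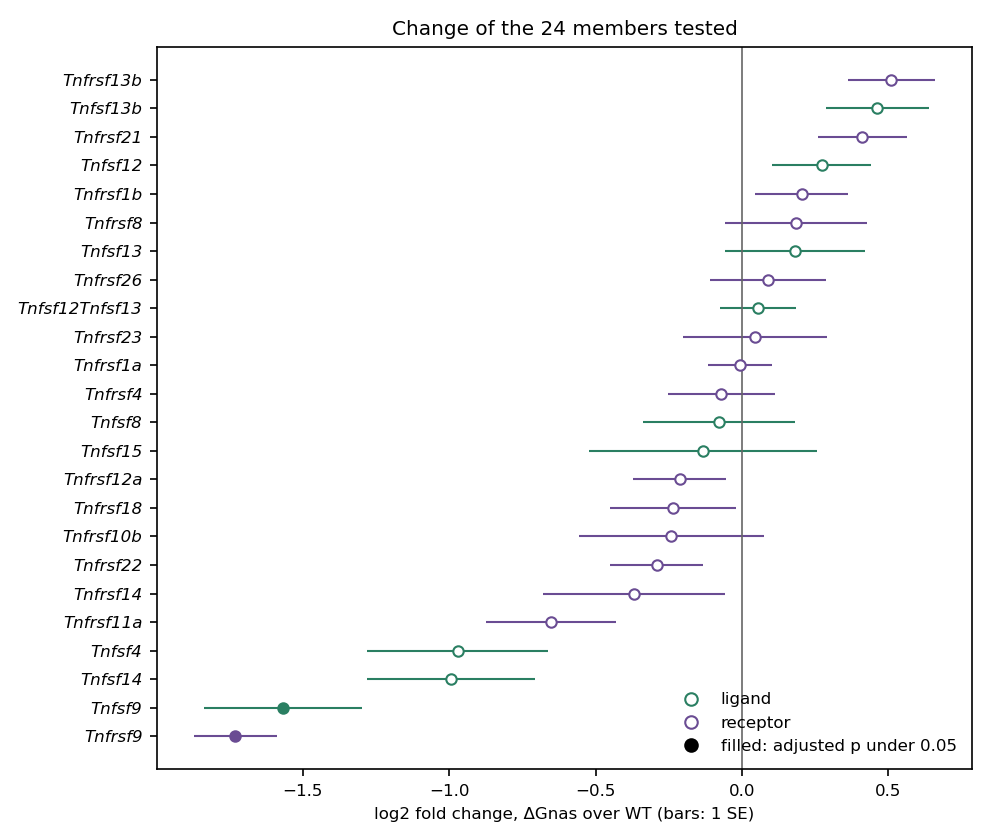
Log2 fold change of each of the 24 tested members in ΔGnas over WT DCs (horizontal axis, bars of 1 SE, green for ligands and violet for receptors). The filled points, Tnfrsf9 and Tnfsf9 at the bottom left, have an adjusted p under 0.05, and the open points lie between -0.99 and 0.51.

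*Tnfrsf9* encodes 4-1BB, an inducible costimulatory receptor best known on activated T cells and also made by DCs. It lies on chromosome 4 (GRCm38, chr4:150914562-150946102, plus strand, ENSMUSG00000028965.13). In WT DCs its level was 154, 122, 134, 104 and 94.1 TPM in replicates 3 to 7, which made it the receptor with the second highest mean, after *Tnfrsf1b*. In Δ*Gnas* DCs it was 44.5, 27.9, 42.3 and 30.9 TPM in replicates 3, 4, 6 and 7. Every Δ*Gnas* library lay below every WT library, and the highest Δ*Gnas* value was under the lowest WT value by more than the SD of either group. The means were 121 ± 23.6 TPM (SD, n = 5) in WT and 36.4 ± 8.22 TPM (SD, n = 4) in Δ*Gnas* DCs, which is 3.32-fold lower (log2 fold change -1.73 with an SE of 0.14, edgeR adjusted p = 0.000233). Under the 21 other ways of fitting the data, including leaving out each library, the log2 fold change stayed between -1.81 and -1.64 and the adjusted p was at most 0.00533.

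*Tnfsf9* encodes 4-1BBL, the ligand through which antigen presenting cells engage 4-1BB on T cells. It lies on chromosome 17 (chr17:57105325-57107757, plus strand, ENSMUSG00000035678.8). Its level was 6.57, 7.66, 6.65, 9.02 and 8.99 TPM in WT replicates 3 to 7 and 2.24, 3.85, 2.19 and 2.30 TPM in Δ*Gnas* replicates 3, 4, 6 and 7. The groups did not overlap, and Δ*Gnas* replicate 4 stood above the 3 other Δ*Gnas* libraries. The log2 fold change was -1.57 (SE 0.27, 2.96-fold lower, edgeR adjusted p = 0.00788). It ranged from -1.84 to -1.28 under the same 21 alternatives, with an adjusted p of at most 0.0284. *Tnfsf9* was at 82.8 to 419 estimated counts per library, against 1338 to 7593 for *Tnfrsf9*. These counts carry no gene length, so they do not give the number of reads behind either value. In TPM the receptor exceeded its ligand in every library of either genotype.

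Markers of mature DCs also lay lower in Δ*Gnas* DCs. Of 12 such markers, 2 fell (*Cd86*, edgeR adjusted p = 0.0420, and *Ccr7*, adjusted p = 0.04998), 12 had a negative log2 fold change, and the median was -0.64. Their summed level was 7936, 5149, 6835, 3779 and 4082 TPM in WT replicates 3 to 7 and 7047, 1792, 2743 and 1920 TPM in Δ*Gnas* replicates 3, 4, 6 and 7. The sum in Δ*Gnas* replicate 3 was thus inside the WT range, and replicate 3 had the highest sum in both genotypes. Among single markers in Δ*Gnas* replicate 3, *Cd86* (56.4 TPM) lay below every WT library (60.5 to 157 TPM). *Ccl22* (2331 TPM) lay above the WT range (1134 to 2087 TPM), and the others lay inside theirs in TPM. The normalised values of *Cd83* and *Cd86* did not overlap between the genotypes. In Δ*Gnas* replicate 3, *Tnfrsf9* (44.5 TPM) and *Tnfsf9* (2.24 TPM) were also below every WT library. Without that library the log2 fold changes were -1.81 and -1.47. In such bulk libraries, fewer cells of a type and less RNA per cell cannot be told apart.

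**Figure D2:**
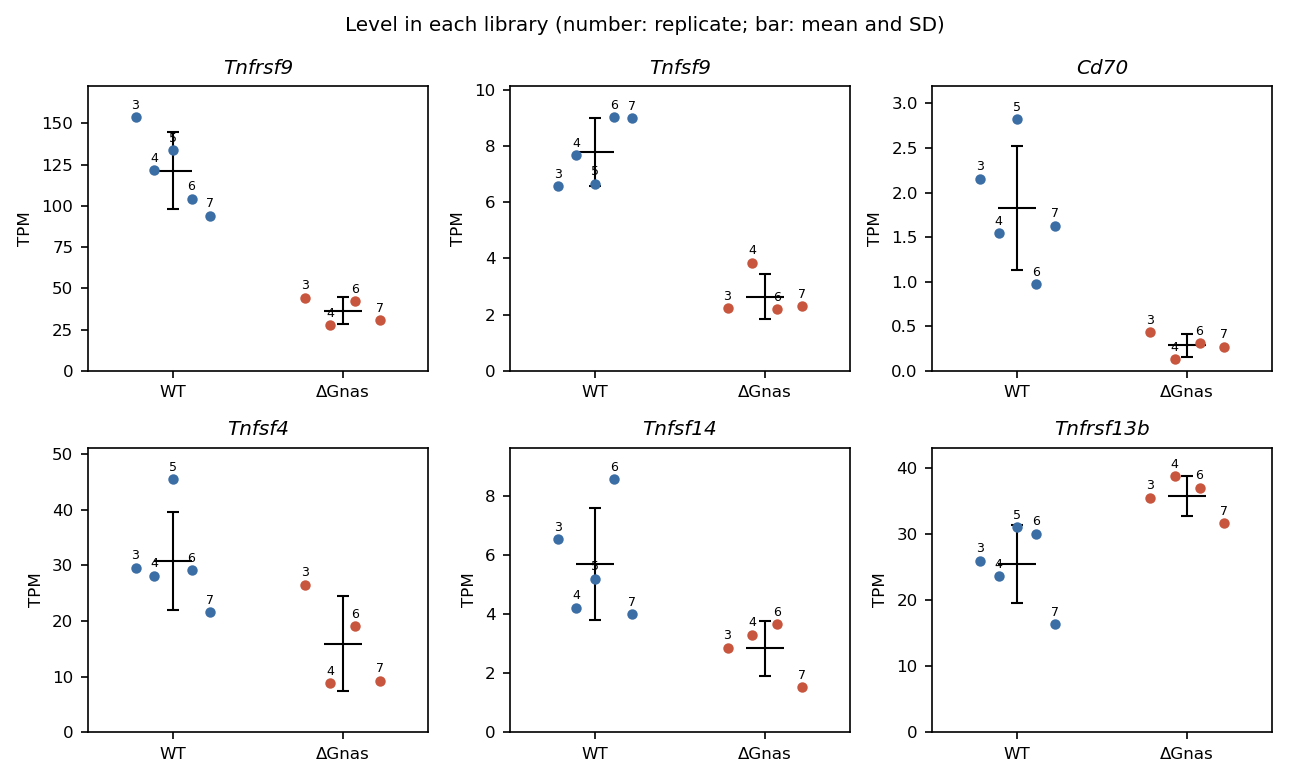
TPM of 5 members and of Cd70 in each library (points, numbered by replicate), with the mean and SD of each genotype (black). Tnfrsf9, Tnfsf9, Cd70, Tnfsf14 and Tnfrsf13b separate the genotypes, while for Tnfsf4 the ΔGnas replicate 3, at 26.5 TPM, lies above WT replicate 7, at 21.7 TPM.

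The sequences before the transcription starts of *Tnfrsf9* and *Tnfsf14* (RefSeq, GRCm38.p6) are given because the first gene changed and the second had values apart between the genotypes in the same region as *Tnfsf9*. They were searched on both strands for the cAMP response element TGACGTCA, its shorter form TGACG (which the full element contains), the AP-1 site TGANTCA and the NF-kB consensus. Of the 32 members, 24 had a promoter in the table, with 28 windows of 250 bases in all. The counts that follow do not cover *Tnfsf9*, *Tnfsf4*, *Tnfsf12*, *Tnfsf12Tnfsf13*, *Tnfrsf10b*, *Tnfrsf11b*, *Tnfrsf22* and *Tnfrsf26*. The full cAMP element was in 0 of the 28 windows, against 1.55% of all 32851 windows. TGACG was in 4 (17.8% of all windows), the NF-kB consensus in 3 (5.0%) and the AP-1 site in 5 (6.75%). A match is a run of letters and no evidence of binding. *Tnfrsf9* has 2 starts among these RefSeq promoters, called upstream and downstream here. The gene as placed above begins further upstream, at position 150914562, and the bases before that position were not searched. The 250 bases before the upstream start, chr4:150919905-150920154 on the plus strand, held none of these motifs and are therefore all in lower case. Before the downstream start at position 150927999 the NF-kB consensus matched in overlapping frames, 43 and 42 bases before the start, and is in capitals in the 30 bases of chr4:150927947-150927976. An AP-1 site lay 15 bases before the same start. For *Tnfsf14*, the 250 bases of chr17:57194182-57194431 on the minus strand held an AP-1 site 160 bases before the start, in capitals.
Tnfrsf9 upstream start: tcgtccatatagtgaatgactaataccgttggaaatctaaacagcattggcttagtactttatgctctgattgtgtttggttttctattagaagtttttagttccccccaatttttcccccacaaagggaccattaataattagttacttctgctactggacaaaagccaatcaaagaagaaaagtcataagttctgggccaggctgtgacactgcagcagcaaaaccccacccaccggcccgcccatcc
Tnfrsf9 downstream start: agagcagctGGGGATTTCCCaggaggccct
Tnfsf14: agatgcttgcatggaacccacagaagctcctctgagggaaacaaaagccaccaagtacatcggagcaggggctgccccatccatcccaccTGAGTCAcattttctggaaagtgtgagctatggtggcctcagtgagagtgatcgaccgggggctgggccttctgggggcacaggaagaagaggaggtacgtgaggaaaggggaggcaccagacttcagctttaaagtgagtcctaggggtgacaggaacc

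On chromosome 17, *Tnfsf9* stands next to 2 further ligand genes, *Cd70* and *Tnfsf14*, within 88.9 kb. *Cd70*, which has no Tnfsf symbol in the table and encodes the ligand of the T cell receptor CD27, was the only tested gene between the other two. It was at 2.16, 1.55, 2.82, 0.975 and 1.63 TPM in WT replicates 3 to 7 and at 0.434, 0.129, 0.311 and 0.271 TPM in Δ*Gnas* replicates 3, 4, 6 and 7. The groups did not overlap, and *Cd70* fell by 2.68 on the log2 scale (SE 0.41, edgeR adjusted p = 0.00481), a call made in each of the 20 alternatives that tested it. Only WT libraries brought *Cd70* over the filter of the test, and its Δ*Gnas* values are low. *Tnfsf14* encodes LIGHT, a ligand of HVEM and of the lymphotoxin beta receptor. Its level was 6.53, 4.22, 5.19, 8.57 and 4.00 TPM in WT replicates 3 to 7 and 2.87, 3.31, 3.66 and 1.52 TPM in Δ*Gnas* replicates 3, 4, 6 and 7. These values did not overlap either, but *Tnfsf14* did not pass (log2 fold change -0.99, SE 0.29, edgeR adjusted p = 0.0577). Of the 22 tested genes that start within 500 kb of *Tnfsf9*, 4.55% were called, which is *Cd70* alone.

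*Tnfrsf9* is 1 of 7 receptor genes in a stretch of chromosome 4 that runs from *Tnfrsf1b* to *Tnfrsf18* (chr4:145213463-156028895). The others are *Tnfrsf8*, *Tnfrsf25*, *Tnfrsf14*, *Tnfrsf4* and the 2 at its ends. Of the 6 tested, only *Tnfrsf9* was called, and the other 5 had log2 fold changes of -0.37 to 0.20. Over all 103 tested genes of this stretch 18.4% were called, against 12.6% over chromosome 4. Of the 5 tested genes that start within 500 kb of *Tnfrsf9*, 0 were called (0.0%).

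*Tnfsf4* encodes OX40L, which costimulates T cells through OX40, the product of *Tnfrsf4*. It was at 29.6, 28.1, 45.5, 29.1 and 21.7 TPM in WT replicates 3 to 7 and at 26.5, 8.81, 19.1 and 9.31 TPM in Δ*Gnas* replicates 3, 4, 6 and 7. In TPM, Δ*Gnas* replicate 3 lay above WT replicate 7, whereas after TMM normalisation the groups did not overlap. The log2 fold change was -0.97 (SE 0.31, edgeR adjusted p = 0.0809), which did not pass. Without Δ*Gnas* replicate 3, a fit in which 13.5% of all genes were called, it was -1.28 with an adjusted p of 0.0196. Of the 21 alternatives, 3 called *Tnfsf4*. *Tnfrsf11a* encodes RANK, through which RANKL prolongs DC survival. It was at 33.3, 29.4, 30.4, 23.8 and 21.2 TPM in WT replicates 3 to 7 and at 29.03, 10.1, 16.99 and 14.6 TPM in Δ*Gnas* replicates 3, 4, 6 and 7. Here 3 of the 4 Δ*Gnas* libraries lay below all WT libraries and replicate 3 lay among them. The log2 fold change was -0.65 (SE 0.22, edgeR adjusted p = 0.10), and without Δ*Gnas* replicate 3 it was -0.95 with an adjusted p of 0.00663. Only 2 of the 21 alternatives called *Tnfrsf11a*. For both genes the exception was the Δ*Gnas* library whose summed level of mature DC markers was in the WT range. The part of those markers in these values was not tested.

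BAFF (*Tnfsf13b*) and APRIL (*Tnfsf13*) sustain B cells and plasma cells, and TACI (*Tnfrsf13b*), BAFF receptor (*Tnfrsf13c*) and BCMA (*Tnfrsf17*) are their receptors. *Tnfrsf13b* was at 26.0, 23.6, 31.1, 30.04 and 16.3 TPM in WT replicates 3 to 7 and at 35.5, 38.7, 37.0 and 31.6 TPM in Δ*Gnas* replicates 3, 4, 6 and 7. The groups were apart, though WT replicate 5 and Δ*Gnas* replicate 7 almost met. Its log2 fold change of 0.51 (SE 0.15, edgeR adjusted p = 0.0600) did not pass, but it did without WT replicate 5 (0.59, adjusted p = 0.0448, with 7.59% of all genes called) and without WT replicate 6 (0.58, adjusted p = 0.0475, with 8.3% called). Of the 21 alternatives, 5 called *Tnfrsf13b*. *Tnfsf13b* was at 3.78, 3.47, 4.26, 4.58 and 3.69 TPM in WT replicates 3 to 7 and at 4.53, 6.03, 5.79 and 5.40 TPM in Δ*Gnas* replicates 3, 4, 6 and 7. WT replicate 6 lay just above Δ*Gnas* replicate 3, and the log2 fold change was 0.46 (SE 0.18, edgeR adjusted p = 0.140). *Tnfsf13* was at 36.3, 43.4, 33.5, 63.1 and 38.9 TPM in WT replicates 3 to 7 and at 35.3, 48.7, 53.9 and 57.2 TPM in Δ*Gnas* replicates 3, 4, 6 and 7, with overlap (log2 fold change 0.18, adjusted p = 0.702). B cell markers were near 0 in these cultures. The 8 of them summed to 1.20 to 3.82 TPM in WT and 1.45 to 6.69 TPM in Δ*Gnas* libraries. The part of B cells in the *Tnfrsf13b* values was not tested.

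*Tnfrsf17* was below the level required for the test. It was at 0.0400, 0.156, 0, 0.0403 and 0.108 TPM in WT replicates 3 to 7 and at 0.292, 0.254, 0.455 and 0.435 TPM in Δ*Gnas* replicates 3, 4, 6 and 7. The groups did not overlap, at 0 to 5.43 estimated counts per WT library and 11.6 to 18.8 per Δ*Gnas* library. These counts carry no gene length. Without the filter on low counts its log2 fold change was 2.30 (edgeR adjusted p = 0.123), and 4.63% of all genes were called in that fit. Plasma cells are the best known source of BCMA. Of 6 plasma cell markers, 5 were tested, with *Igj*, the joining chain of antibodies, higher (log2 fold change 3.79, adjusted p = 0.00238) and *Sdc1* lower (log2 fold change -0.88, adjusted p = 0.0183). *Igj* was at 0.255 to 1.43 TPM in WT and 5.17 to 15.005 TPM in Δ*Gnas* libraries, and its WT libraries alone would not have passed the filter. *Mzb1*, at 0.182 to 0.984 and 0.726 to 2.04 TPM, did not pass (log2 fold change 1.31, edgeR adjusted p = 0.133). Of the 5 tested, 3 had a log2 fold change below 0. The 6 markers summed to 114 to 212 TPM in WT and 99.6 to 141 TPM in Δ*Gnas* libraries. Most of this came from *Sdc1* (84.8 to 123 and 41.8 to 77.4 TPM) and *Irf4* (20.4 to 66.1 and 21.1 to 63.7 TPM). The part of plasma cells in the *Tnfrsf17* values was not tested.

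The receptors of TNF were among the most abundant members. *Tnfrsf1b*, which lacks a death domain and signals through TRAF2, was at 318, 204, 228, 205 and 173 TPM in WT replicates 3 to 7 and at 298, 193, 217 and 314 TPM in Δ*Gnas* replicates 3, 4, 6 and 7. In TPM the ranges overlapped almost in full. After TMM normalisation the level was 222 ± 24.3 CPM (SD, n = 5) in WT and 256 ± 56.7 CPM (SD, n = 4) in Δ*Gnas* DCs. The log2 fold change was 0.20 (SE 0.16, edgeR adjusted p = 0.487). *Tnfrsf1b* supplied 37.3 to 44.2% of all Tnfrsf TPM in WT and 44.3 to 57.1% in Δ*Gnas* libraries. This share also depends on the other receptors in the sum, of which *Tnfrsf9* fell, and *Tnfrsf1b* itself was not called. *Tnfrsf1a*, the TNF receptor with a death domain, was at 76.5 ± 11.5 TPM (SD, n = 5) in WT and 75.3 ± 4.54 TPM (SD, n = 4) in Δ*Gnas* DCs, and its log2 fold change of -0.01 (SE 0.11, adjusted p = 0.976) was the smallest in size among the members tested. *Tnf*, which the symbol rule leaves out, was at 15.6 to 64.5 TPM in WT and 19.01 to 43.1 TPM in Δ*Gnas* DCs (log2 fold change -0.39, SE 0.41, adjusted p = 0.617). The summed Tnfrsf level was 569 ± 103 TPM (SD, n = 5) in WT and 511 ± 63.8 TPM (SD, n = 4) in Δ*Gnas* DCs, with ranges of 438 to 720 and 431 to 572 TPM that overlapped. The 438 and 720 TPM were in WT replicates 7 and 3, which had the lowest and the highest TMM factor.

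Ligand RNA came mostly from a single locus of chromosome 11, where *Tnfsf12* (TWEAK, chr11:69686250-69695849) and *Tnfsf13* (chr11:69682846-69685784) lie 0.466 kb apart on the minus strand. A further gene, *Tnfsf12Tnfsf13*, joins exons of both, so reads of the shared exons are divided among the 3 and their separate values are uncertain. Together they made up 63.0 to 75.7% of all Tnfsf TPM in WT and 73.9 to 87.9% in Δ*Gnas* libraries. None of the 3 was called, and the share also depends on the other ligands in the sum, of which *Tnfsf9* fell. *Tnfsf12* was at 49.9 ± 5.29 TPM (SD, n = 5) in WT and 60.5 ± 7.33 TPM (SD, n = 4) in Δ*Gnas* DCs (log2 fold change 0.27, edgeR adjusted p = 0.372). *Tnfsf12Tnfsf13* was at 34.8 ± 6.71 and 35.6 ± 3.85 TPM (log2 fold change 0.05, adjusted p = 0.843). *Tnfrsf12a* (Fn14), the receptor of TWEAK, had 8.81 to 10.6 TPM in WT and 6.43 to 9.11 TPM in Δ*Gnas* DCs (log2 fold change -0.21, adjusted p = 0.466). The summed Tnfsf level was 182 ± 13.9 TPM (SD, n = 5) in WT and 177 ± 13.6 TPM (SD, n = 4) in Δ*Gnas* DCs, so the groups differed by less than the SD of either.

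**Figure D3:**
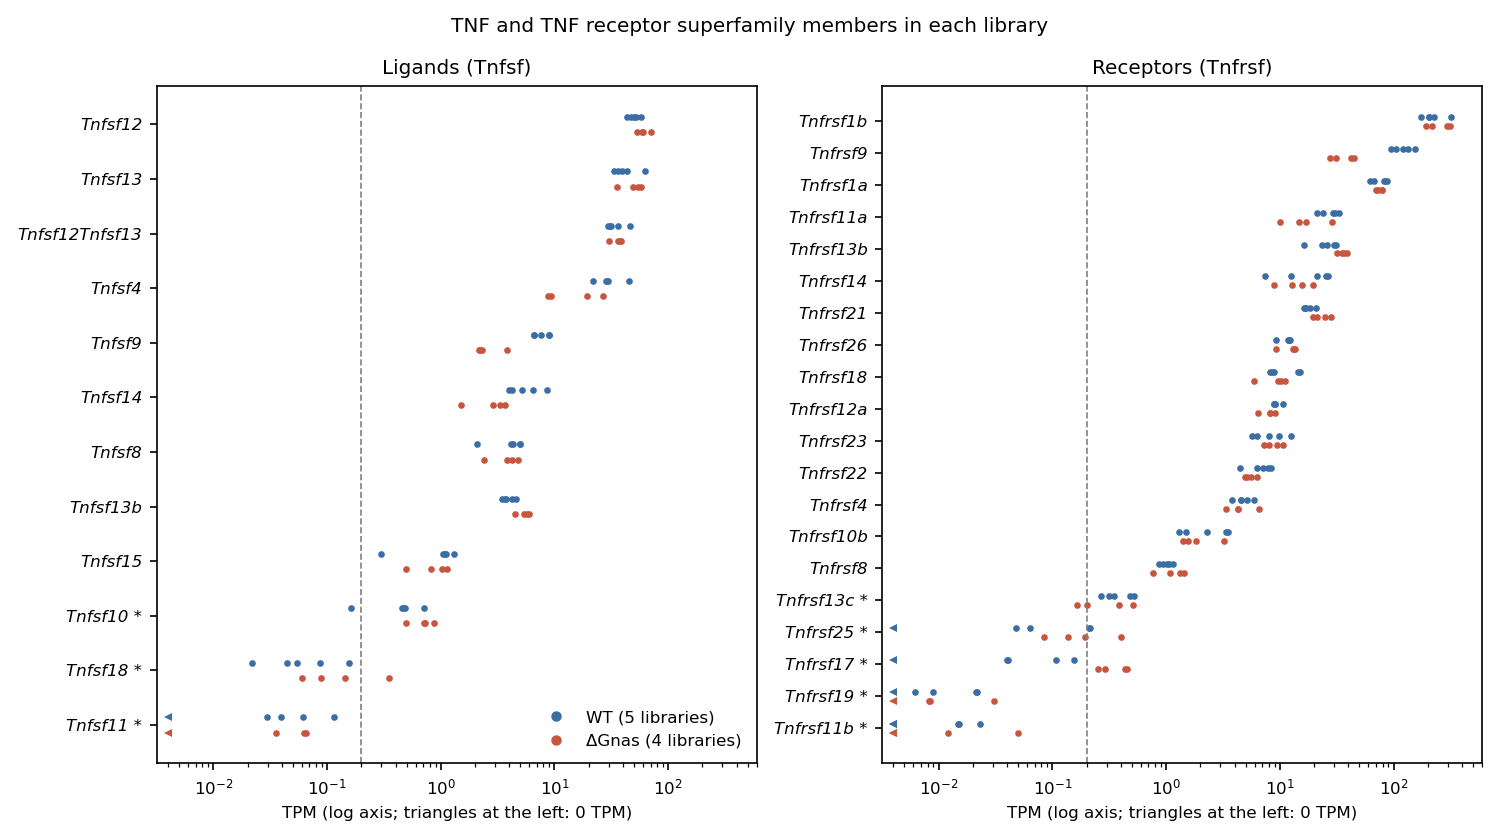
TPM of the 12 ligands (left) and 20 receptors (right) in each library on a log axis, blue for WT and red for ΔGnas, ordered by the WT mean, with triangles for 0 TPM and a dashed line at 0.2 TPM. The 8 members marked with an asterisk were too low to be tested, and Tnfrsf1b and the Tnfsf12 and Tnfsf13 locus lead the receptors and ligands.

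The other tested members did not pass, and their libraries overlapped between the genotypes. *Tnfrsf21* (DR6, a death domain receptor) was at 16.3 to 21.01 TPM in WT and 19.7 to 28.5 TPM in Δ*Gnas* DCs. It had a log2 fold change of 0.41 with an SE of 0.15 (edgeR adjusted p = 0.129), and passed without Δ*Gnas* replicate 3 (0.51, adjusted p = 0.0399). That fit was the only 1 of the 21 alternatives to call *Tnfrsf21*. *Tnfrsf14* (HVEM, which binds LIGHT) was at 25.7, 21.1, 12.5, 26.8 and 7.47 TPM in WT replicates 3 to 7 and at 19.4, 8.88, 15.7 and 12.9 TPM in Δ*Gnas* replicates 3, 4, 6 and 7. All Δ*Gnas* values lay inside the WT range, and its log2 fold change was -0.37 with an SE of 0.31 (adjusted p = 0.522). *Tnfrsf18* (GITR, a costimulatory receptor) was at 8.20 to 15.02 and 5.96 to 11.03 TPM (log2 fold change -0.24, adjusted p = 0.554). *Tnfrsf4* was at 5.97, 5.17, 4.58, 3.76 and 4.54 TPM in WT replicates 3 to 7 and at 6.51, 3.35, 4.28 and 4.28 TPM in Δ*Gnas* replicates 3, 4, 6 and 7, so that the groups overlapped (log2 fold change -0.07, adjusted p = 0.858). *Tnfrsf8* (CD30) was at 0.871 to 1.16 and 0.761 to 1.43 TPM (0.18, adjusted p = 0.702). *Tnfrsf10b*, the death receptor for TRAIL in mice, was at 1.31 to 3.49 and 1.39 to 3.22 TPM (log2 fold change -0.24, adjusted p = 0.699). *Tnfrsf22* and *Tnfrsf23*, which encode mouse decoy receptors for TRAIL, and their neighbour *Tnfrsf26* on chromosome 7 had log2 fold changes of -0.29, 0.04 and 0.09, with adjusted p-values of 0.309 to 0.940. These 3 genes are related in sequence, so reads may have been divided among them. The remaining tested ligands were *Tnfsf8* (the CD30 ligand), at 2.09 to 4.99 and 2.39 to 4.79 TPM (log2 fold change -0.08, adjusted p = 0.895), and *Tnfsf15* (TL1A), at 0.296 to 1.30 and 0.492 to 1.14 TPM (-0.13, adjusted p = 0.877).

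With 0.2 TPM as the lowest mean level counted as detected, 26 of 32 members were detected in WT DCs and 28 in Δ*Gnas* DCs. Ligands gave 10 of 12 in both genotypes, and receptors 16 of 20 in WT and 18 of 20 in Δ*Gnas* DCs. The 2 further receptors were *Tnfrsf17* and *Tnfrsf25*, the receptor of TL1A, whose Δ*Gnas* mean of 0.204 TPM lay just above the level and whose libraries overlapped (0 to 0.215 TPM in WT, 0.0849 to 0.3995 TPM in Δ*Gnas*). Below the level in both were *Tnfsf11* (RANKL, at most 0.114 TPM in any library), *Tnfsf18* (the GITR ligand, at most 0.351 TPM), *Tnfrsf11b* (osteoprotegerin, at most 0.0498 TPM) and *Tnfrsf19* (TROY, at most 0.0306 TPM). *Tnfrsf13c* (at most 0.522 TPM) and *Tnfsf10* (TRAIL, at most 0.880 TPM) passed the level but not the filter of the test. A value of 0 allows up to 3 estimated counts, which is 0.0607 to 0.0876 TPM depending on the library and covers counting error only. As the deposited counts carry no gene length, this limit does not allow for the length of a transcript. The levels of *Tnfrsf19* and *Tnfrsf11b* were below that limit in all libraries, and an absence cannot be shown at this depth.

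A partial list of 17 known ligand and receptor pairs was read. It leaves out, among others, LIGHT with the lymphotoxin beta receptor and CD70 with CD27. Across the 17 pairs, both partners were detected in WT DCs for 11, and both changed for 1, *Tnfsf9* with *Tnfrsf9*. The pairs OX40L with OX40 and LIGHT with HVEM had the larger difference on the ligand side, with log2 fold changes of -0.97 and -0.07 for the first pair and -0.99 and -0.37 for the second, none of which passed. RANK and GITR were expressed (mean 27.6 and 11.05 TPM in WT) without a detected ligand in the same cultures (*Tnfsf11* 0.0489 and *Tnfsf18* 0.0729 TPM in WT).

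**Figure D4:**
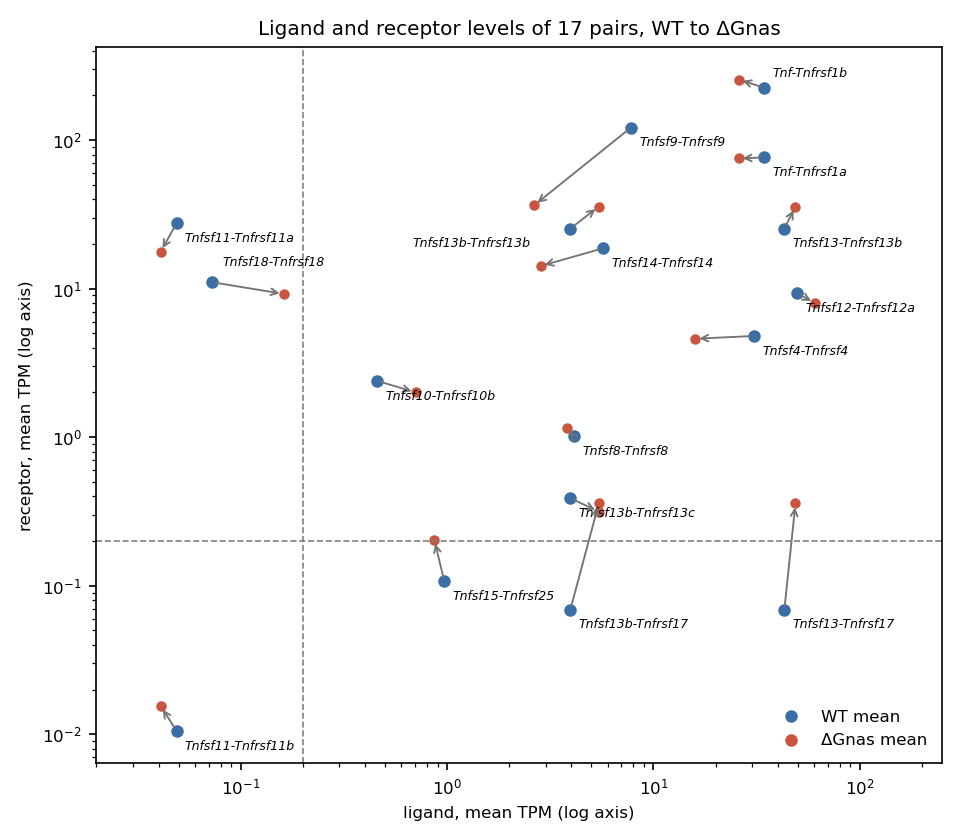
Mean TPM of the ligand (horizontal, log axis) and the receptor (vertical, log axis) of 17 pairs in WT (blue) and ΔGnas DCs (red), joined by an arrow from WT to ΔGnas, with dashed lines at 0.2 TPM. The pair Tnfsf9 and Tnfrsf9 moves from 7.78 and 121 TPM to 2.64 and 36.4 TPM, and it is the pair of which both partners changed.

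Further genes of the pathway were read from 6 lists. Of 70 genes, 61 were tested, 1 rose and 3 fell (6.56%, against 9.56% of all genes), with a median log2 fold change of -0.14. Without Δ*Gnas* replicate 3 the counts were 4 higher and 10 lower, in a fit that called 13.5% of all genes. Among ligands with other symbols, *Cd70* fell, 1 of 3 tested, and *Ltb* (lymphotoxin beta), at 2.92 to 3.97 TPM in WT and 4.84 to 18.8 TPM in Δ*Gnas* DCs, did not pass (log2 fold change 1.42, edgeR adjusted p = 0.0541). The 18.8 TPM of *Ltb* was in Δ*Gnas* replicate 4, and the other Δ*Gnas* libraries had 4.84 to 5.98 TPM. *Ltb* was called in 4 of 21 alternatives, over which its log2 fold change ran from 0.68 to 1.62. Of the 9 fits that left out a library, 1 called it, the fit without Δ*Gnas* replicate 3 (edgeR adjusted p = 0.0304). It was not called without Δ*Gnas* replicate 4. Of 4 tested receptors with other symbols, *Fas*, *Relt*, *Ltbr* and *Cd40*, 0 passed, and *Cd27*, the receptor of CD70, was not tested at 0.0371 to 0.580 TPM. T cell markers, of which *Cd3g* and *Cd4* were higher, summed to 3.33 to 4.71 TPM in WT and 5.27 to 14.4 TPM in Δ*Gnas* libraries. *Cd3g* passed the filter of the test only through Δ*Gnas* libraries. It was at 0.206 to 0.820 TPM in WT and at 0.317, 6.82, 1.13 and 2.47 TPM in Δ*Gnas* replicates 3, 4, 6 and 7. Its Δ*Gnas* replicate 3 thus lay inside the WT range, and replicate 4 stood far above the rest.

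*Adam17* encodes the protease that sheds TNF and several receptors of the superfamily. It was at 60.2, 51.6, 44.1, 60.4 and 35.8 TPM in WT replicates 3 to 7 and at 91.3, 69.3, 81.8 and 76.9 TPM in Δ*Gnas* replicates 3, 4, 6 and 7. The groups did not overlap, and *Adam17* rose by 0.68 on the log2 scale (SE 0.12, edgeR adjusted p = 0.00846), 1 of 5 tested genes of the shedding list. *Nfkbib*, which encodes the NF-kB inhibitor IkB beta, was at 118, 90.1, 92.7, 69.9 and 80.5 TPM in WT replicates 3 to 7 and at 38.7, 29.2, 45.3 and 31.5 TPM in Δ*Gnas* replicates 3, 4, 6 and 7. All Δ*Gnas* libraries lay below all WT libraries, and *Nfkbib* fell by 1.31 on the log2 scale (SE 0.15, edgeR adjusted p = 0.00123). It was the only 1 of 18 NF-kB subunits, kinases and inhibitors to pass, while 16 of the 18 had a log2 fold change below 0 (median -0.32). *Adam17* and *Nfkbib* were called in each of 21 alternatives. Of 22 adaptors and ubiquitin ligases, *Traf6* fell (log2 fold change -0.60, SE 0.16, adjusted p = 0.0463), but it was called in 3 of the 9 fits that left out a library, failing without WT replicate 3, 4, 5 or 6 or Δ*Gnas* replicate 4 or 7 (adjusted p up to 0.146). *Traf1*, an adaptor that 4-1BB recruits, was at 154 to 352 TPM in WT and 65.1 to 244 TPM in Δ*Gnas* DCs and did not pass (log2 fold change -0.85, SE 0.33, adjusted p = 0.145). Of 9 death signalling genes 0 were called.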

How the data were processed

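The authors sequenced stranded mRNA libraries, assigned reads to transcripts of Ensembl 79 (GRCm38) with Kallisto, summed transcripts to genes and deposited TPM values and estimated counts per gene and library. The deposited estimated counts equal TPM times 1 factor per library and carry no gene length. Of 30620 rows, 32 name no gene (0.0843 to 0.121% of counts) and were left out. Counts were rounded. Genes with 3 or more libraries over 1 CPM were compared between 4 Δ*Gnas* and 5 WT libraries, unpaired, by edgeR 4.0.16 (glmQLFit, glmQLFTest, TMM factors, R 4.3.3), with Benjamini-Hochberg adjustment over 11862 genes. The study's own test was edgeR's exact test, run here as an alternative. Each SE was derived from the log2 fold change and the F statistic. The fit was tested on simulated data. The members and lists were chosen with earlier results of these data known. All members are named, with values per library for those called, for tested genes of the OX40, LIGHT, BAFF and APRIL pairs and for some others, and by range or mean otherwise, and up to 4 called genes of each pathway list. Other genes were named with their values in view. Positions are from GENCODE for GRCm38 and promoters from RefSeq. Alternatives were the exact test, DESeq2 1.42.0, limma-voom and limma-trend (limma 3.58.1) on log2(TPM + 1) or log2(TPM + 0.1), upper-quartile factors, no filter, over 5 CPM, a replicate block, sex by label, a robust fit, each library left out and, added after the data were seen, counts rescaled by transcript length. Protein data were not analysed here.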

Additional observations from a re-analysis of the deposited data

Results flagged for a closer look

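Within a genotype, 6 of 48 sets of values for the tested members held a library that stood apart from the others by Dixon's criterion, which chance alone meets in about 1 of 20 sets. *Tnfsf9* was at 3.85 TPM in Δ*Gnas* replicate 4 and at 2.19 to 2.30 TPM in the other Δ*Gnas* libraries, and without replicate 4 its log2 fold change was -1.84 (edgeR adjusted p = 0.00562). *Tnfsf8* was at 2.09 TPM in WT replicate 7 against 4.16 to 4.99 TPM in the other WT libraries, and *Tnfsf15* was at 0.296 TPM there against 1.05 to 1.30 TPM. *Tnfrsf26* was low in replicate 3 of both genotypes, at 9.35 TPM against 11.9 to 12.3 TPM in WT and at 9.27 TPM against 13.02 to 13.5 TPM in Δ*Gnas* DCs. *Tnfrsf12a* was at 10.6 TPM in WT replicate 5 and at 8.81 to 9.16 TPM in the other WT libraries.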

How the results depend on the processing

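*Tnfrsf9* and *Tnfsf9* were called lower in all 21 alternatives. The count of members called was 2 in the reported fit, 5 by edgeR's exact test (12.3% of all genes called), 6 by DESeq2 (14.9%) and 2 to 5 with a library left out, the 5 being without Δ*Gnas* replicate 3 (13.5%). *Tnfsf14*, *Tnfsf4* and *Tnfrsf13b* were called by both the exact test and DESeq2, and *Tnfrsf11a* by DESeq2 (adjusted p = 0.0430). *Tnfsf14* was also called with counts rescaled by transcript length (adjusted p = 0.0492). The other pathway genes called numbered 4, against 11 by DESeq2, 2 over 5 CPM, and 3 to 14 with a library left out. All genes called numbered 1134, against 1769 by DESeq2 and 519 to 1586 with a library left out. No alternative turned the direction of a called value, but among uncalled members *Tnfrsf1a*, *Tnfrsf4*, *Tnfrsf23*, *Tnfrsf26*, *Tnfsf8* and *Tnfsf15* had log2 fold changes on either side of 0. With the replicate block, 4 members were called, *Tnfrsf13b* (adjusted p = 0.0272) and *Tnfsf14* (adjusted p = 0.0473) in addition, and 1188 genes in all. The numbers mark no shared animal or day in the labels, and the deviations of same-numbered libraries correlated at 0.29, -0.04, 0.25 and 0.16 for replicates 3, 4, 6 and 7, where replicates 3, 6 and 7 were closest to their own number and replicate 4 to WT replicate 7. As the labels do not say what a number marks, the reported fit was unpaired and the block is an alternative. The correlations do not settle whether same-numbered libraries belong together. Detected members were 27 in WT and 29 in Δ*Gnas* DCs at 0.1 TPM and 23 in both at 1 TPM. Depth limits the 8 untested members, and near-identical copies may share reads.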
